A study of Mus musculus with 16 samples.

Results

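The cytoplasmic ribosomal protein genes were taken as the gene symbols made of Rpl or Rps and a number, with or without a letter for a variant form, together with *Rplp0*, *Rplp1*, *Rplp2* and *Rpsa*. Of 29453 genes in the deposited matrix, 84 had such a symbol and 81 of these also had at least 1000 unique molecular identifiers (UMIs, each marking 1 captured mRNA molecule) over all cells not called doublets. They are 32 small subunit and 49 large subunit genes. The 3 symbols left out were *Rpl10l* with 24 UMIs, *Rpl3l* with 80 and *Rpl39l* with 379, whereas the members with the fewest were *Rpl7l1* with 246549 and *Rpl29* with 263875.

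The cells came from chimeric CD1 mouse embryos in which *Stat3* null embryonic stem cells (ESCs), marked by the red fluorescent protein tdTomato, had been injected into wild-type (WT) CD1 host blastocysts. The null allele replaces exons 20 to 22 of *Stat3* with a neomycin resistance cassette, and the ESCs come from mice carrying it and were marked with tdTomato and picked as colonies. Null cells are those sorted as tdTomato positive, and WT cells are host cells sorted as tdTomato negative and without a tdTomato UMI. At embryonic day (E) 7.5 there were 2 null and 2 WT libraries, at E8.5 2 of each and at E9.5 4 of each, called A to D within a group. Each pool or embryo gave both a null and a WT sample, so null and WT libraries can share embryos, but which libraries belong together is not known. Embryos at E7.5 were sorted by size into large and small before pooling, so the 2 E7.5 libraries of a genotype may be size classes. Embryos were pooled at E7.5 and E8.5, and the study names 2 embryos at E9.5, so the number of independent embryos behind the 4 libraries of a genotype is not known and p-values measure the spread between libraries, which may in part be technical. Every null cell descends from an ESC line and every WT cell from a host, so the absence of *Stat3* and the origin of the cells cannot be told apart.

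Ribosomal proteins build, together with ribosomal RNA, the small and the large subunit of the ribosome, and most are needed in matched amounts. Their mRNAs are among the most abundant in growing cells and start with a run of pyrimidines, the terminal oligopyrimidine tract, through which mTOR signalling sets their translation. Loss of 1 copy of several of them, among them *Rps19*, *Rps26*, *Rpl5*, *Rpl11*, *Rpl26* and *Rpl35a*, causes Diamond-Blackfan anaemia in people, and some members have a paralog that can take their place in the subunit. Because these genes were left out of the study's own test between genotypes and of its transfer of cell type labels, the cell types used here were assigned without them.

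The start sites of *Rpl26* and *Rpl35a*, and of the paralogs *Rps27l* and *Rpl36al* beside those of *Rps27* and *Rpl36a*, are shown because the results below on single members return to them. The letters are 30 bases of RefSeq sequence (GRCm38.p6) around a listed transcription start, 5′ to 3′ on the gene's strand, with capitals marking CCGGAAG, the site of ETS family factors, or CTTTCC, a pyrimidine run of the kind found at ribosomal protein start sites. *Rpl26* lies at chr11:68901551-68901580 (plus strand), *Rpl35a* at chr16:33056467-33056496 (plus, 1 of 3 listed starts), *Rps27l* at chr9:66946071-66946100 (plus, 1 of 2 listed starts), *Rps27* at chr3:90213634-90213663 (minus), *Rpl36al* at chr12:69184053-69184082 (minus) and *Rpl36a* at chrX:134585639-134585668 (plus).
Rpl26: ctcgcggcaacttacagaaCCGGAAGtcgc
Rpl35a: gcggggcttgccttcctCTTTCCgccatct
Rps27: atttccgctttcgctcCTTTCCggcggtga
Rps27l: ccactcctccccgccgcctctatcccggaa
Rpl36al: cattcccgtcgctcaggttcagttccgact
Rpl36a: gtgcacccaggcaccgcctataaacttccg
In *Rps27l* the letters ccggaa at the end of the run begin a CCGGAAG that ends 1 base past it, and in *Rpl26*, *Rpl36al* and *Rpl36a* a CTTTCC lies outside the letters shown but within 50 bases of the start. Of the 81 members, 61 had a promoter in the RefSeq table. CTTTCC stood on the gene's strand within 50 bases of the start in 19 of these 61 (31.1%), against 5.43% of 27025 genes, and CCGGAAG in 10 of them (16.4%, against 3.18%). On either strand of the whole 300 bases the shares were 52.5% of members and 29.3% of all genes for CTTTCC, and 41% and 9.93% for CCGGAAG. The motifs can overlap where the CC that ends the one begins the other, and a match is a description of the letters only.

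The libraries held 360 to 4327 analysed cells and 20682659 to 138613245 UMIs each, and the matrix gives 37841 analysed cells in 87 cell types. Among their barcodes, 488 of 37351 distinct ones occurred in more than 1 library. No pair of libraries of a group agreed within counting noise, with a chi-square per degree of freedom of 18.1 to 72.2. *Stat3* itself stood at 6.14 to 9.31 counts-per-million (CPM) in the WT libraries and 1.16 to 2.53 in the null libraries, with no overlap, although 3′ tags need not lie in the exons that were replaced. Of the null cells, 72.3 to 98.3% per library had a tdTomato UMI. The level of tdTomato was 66.1 CPM in E8.5 null library B and 139 to 237 CPM in the other null libraries. All 7 erythroid markers had UMIs, and their summed level at E8.5 was 29396 to 48886 CPM in WT and 14396 to 42319.9 in null libraries, and at E9.5 4987 to 15550 in WT and 223 to 590 in null libraries. At E7.5 the 6 extra-embryonic ectoderm markers summed to 294 to 471 CPM in WT and 11.4 to 13.8 in null libraries, and the 6 visceral or extra-embryonic endoderm markers to 401 to 504 and 2.13 to 5.42. The tests between genotypes were repeated without blood and extra-embryonic types, with the value given where that ends a member's call, and the stage comparisons of the members likewise, with the counts given. Left out there were erythroid cells, blood progenitors, haematoendothelial progenitors and the types labelled visceral, parietal or extra-embryonic (ExE). Erythro-myeloid and megakaryocyte progenitors and the yolk sac, allantois and amnion types stayed in.

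Ribosomal protein genes were a large part of all mRNA molecules counted. The share of UMIs on the 81 members ranged from 5.34 to 29.96% per cell, with a median of 23.7%. The upper end was set by the authors, who kept barcodes under 30% ribosomal RNA, a limit that removed 1151 of 42983 otherwise passing barcodes. It removed 3.95% at E7.5, 5.83% at E8.5 and 0.667% at E9.5, and its highest toll was 11.7% in E8.5 null library B.

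At E7.5 the members took 23.7 and 25.2% of the UMIs in the WT libraries and 25.0 and 25.3% in the null libraries. At E8.5 the share was 25.8 and 25.6% in WT and 25.6 and 26.5% in null libraries. At E9.5 it was 21.56, 22.21, 21.99 and 22.44% in WT and 22.04, 23.00, 22.94 and 22.09% in null libraries. Null and WT libraries overlapped at every stage, while every E9.5 library lay below every earlier one.

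From E8.5 to E9.5 the share differed by −3.58 percentage points (exact two-sided permutation of stage within genotypes, p = 0.00444, the smallest that 225 arrangements allow), with −3.64 points in WT and −3.53 in null libraries. Both subunits took part, the small with −1.60 and the large with −1.98 points. The rise from E7.5 to E8.5 was 1.09 points (exact permutation p = 0.0556, the smallest of 36 arrangements, so that this comparison could not reach 0.05). It was made up of 0.913 points for the small and 0.173 points for the large subunit (exact permutation p = 0.0556 and 0.667). With the barcodes over the authors' limit put back, the 2 stage differences were −3.83 and 1.16 points. In these permutations of stage, null and WT libraries were relabelled independently, although those of the same pool share its stage. The p-values can therefore be too small.

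Between genotypes the share was 0.513 points higher in null libraries (exact permutation within stages, p = 0.0897), with 0.713 points at E7.5, 0.355 at E8.5 and 0.471 at E9.5, and so did not pass the test. The large subunit share was 0.384 points higher (exact permutation p = 0.0317), with 0.631 points at E7.5, 0.213 at E8.5 and 0.307 at E9.5. The small subunit share was 0.130 points higher (exact permutation p = 0.309). Within the members' own UMIs the small subunit held 0.415 points less in null libraries (exact permutation p = 0.0175). By stage that difference was −0.938 points at E7.5, −0.0758 at E8.5 and −0.230 at E9.5. These 4 measures of the share were not adjusted for one another. The alternatives that follow were run for the total share only, not for the subunits. Among cells of 15000 to 40000 UMIs the difference in the total share was 0.276 points (exact permutation p = 0.361), and without E7.5 WT library B or E8.5 null library A it was 0.770 (exact permutation p = 0.0254) or 0.673 points (exact permutation p = 0.0238). Without E7.5 WT library A it was 0.256 points (exact permutation p = 0.217), and without blood and extra-embryonic types 0.370 points (exact permutation p = 0.198).

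**Figure D1:**
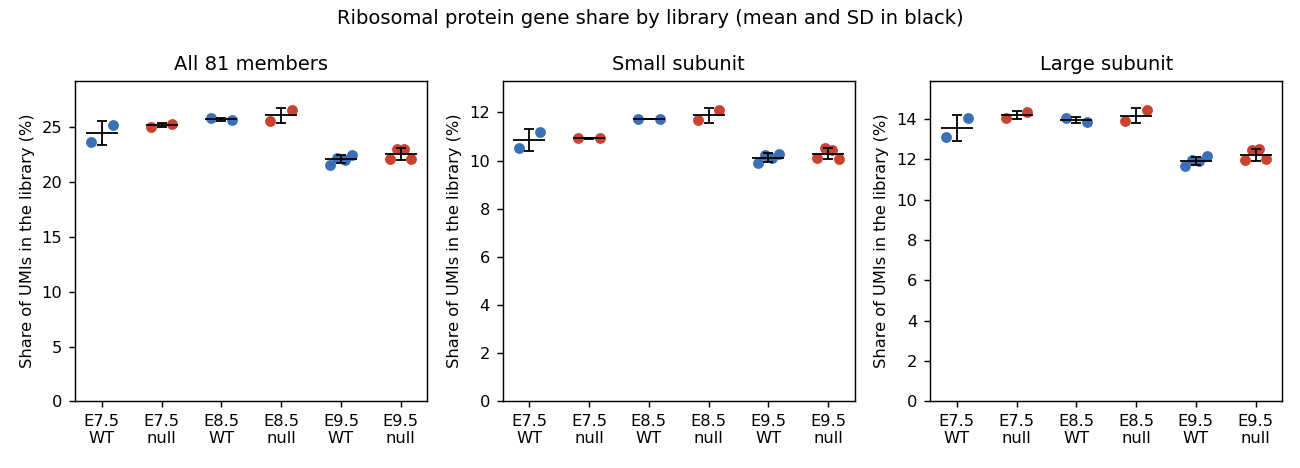
Share of each library's UMIs (percent, axis from 0) on all 81 ribosomal protein genes, on the 32 small subunit and on the 49 large subunit genes, by stage and genotype. Points are libraries (blue WT, red null), bars the mean and SD, and the E9.5 libraries sit at 21.56 to 23.00% for all members, below all others.

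Cell types differed in their ribosomal protein share. The mean share over types ran from 22.7 to 25.9% among 12 types present in at least 3 libraries at E7.5, from 22.41 to 28.02% among 38 at E8.5 and from 19.97 to 24.84% among 42 at E9.5. Each type was set against the other cells of the same library, and 28 of 43 types present in at least 6 libraries differed (exact sign-flip permutation over libraries, Benjamini-Hochberg adjusted over types), 16 of them higher and 12 lower. With more than 50 cells per library fewer types could be tested and 10 of 16 passed, and among cells of 15000 to 40000 UMIs 15 of 32 did. Null and WT libraries that may share embryos counted as separate units in this test.

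These means run over all libraries that held a type, so types can rest on different stages. Mesenchyme was 2.36 points below the other cells (SD 0.836, lower in 16 of 16 libraries, exact permutation adjusted p = 0.00131). At E9.5 alone the difference was −1.81 for Mesenchyme and −2.28 for the mesothelium of the yolk sac (YS mesothelium). Over its libraries YS mesothelium was 2.17 points lower (SD 0.468, n = 10, exact permutation adjusted p = 0.00525), allantois 2.04, epicardium 1.68 and epidermis 1.22 points lower. At the other end stood the erythro-myeloid progenitors (EMP), early blood precursors of the yolk sac, at 2.69 points higher (SD 0.846, 9 of 9 libraries, exact permutation adjusted p = 0.00884). Frontonasal mesenchyme was 1.71 points higher (SD 0.303), branchial arch neural crest 1.24, migratory neural crest 1.18 and posterior somitic tissues 1.09. Erythroid cells were not called, with 0.308 points above the other cells at E8.5 (higher in 2 of 4 libraries) and 1.98 points below at E9.5 (higher in 0 of 4). Those 4 libraries at E9.5 included too few null ones for a test between genotypes.

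**Figure D2:**
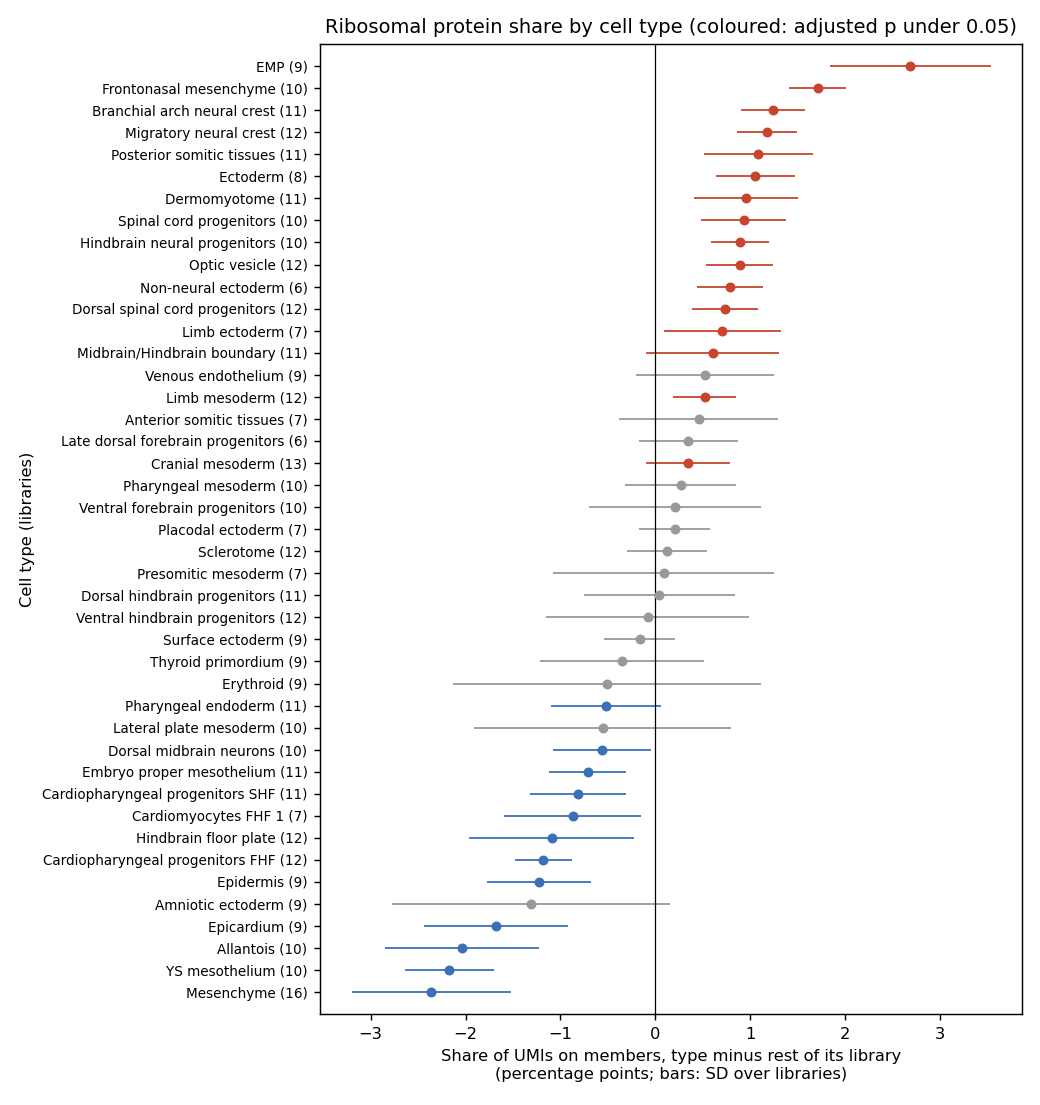
Ribosomal protein share of each cell type minus that of the other cells of its library (percentage points; point, mean; bar, SD over the number of libraries in brackets). Red and blue types passed the test in either direction, from EMP at 2.69 to Mesenchyme at −2.36 points, and grey types did not.

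Within cell types the null mean exceeded the WT mean in 7 of 7 types at E7.5, 17 of 20 at E8.5 and 31 of 37 at E9.5, with median differences of 0.443, 0.392 and 0.419 points. Cell types of a stage share their libraries, so these counts are not independent. Null libraries lay wholly above WT libraries in 1, 6 and 2 of these types and wholly below in none of them. At E7.5 and E8.5 each genotype had 2 libraries, and groups of that size can separate easily by chance. The 2 types at E9.5 were limb ectoderm (2 null and 2 WT libraries) and thyroid primordium (2 null and 3 WT). No type with 4 libraries of each genotype separated.

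Members differed widely in level. Levels are counts-per-million (CPM) of UMIs from 3′ tags, not per length, and many ribosomal protein genes have near-identical processed pseudogenes that can take or block reads, so the order is a description of counted molecules. Among the members with the highest levels were *Rpl41*, which encodes the smallest ribosomal protein, at 5980 CPM (SD 821, n = 16), *Rpsa*, also known as the laminin receptor, at 5153 (SD 373), *Rps20* at 5134 (SD 629) and *Rps27a*, a fusion of ubiquitin and a small subunit protein, at 5067 (SD 359). The last 3 differed by less than their SDs. Lowest were *Rpl7l1* at 199 CPM (SD 18.3), *Rpl29* at 221 (SD 39.2), *Rpl36al* at 328 (SD 57.1), *Rpl13a* at 433 (SD 33.8) and *Rpl27* at 441 (SD 86.0).

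Which members differed between null and WT cells was tested on UMIs summed per library with edgeR's quasi-likelihood test over 15681 genes, Benjamini-Hochberg adjusted. Over the mean of the 3 stages, 4 of 81 members were called and all 4 were higher in null libraries, *Rpl26*, *Rpl35a*, *Rps27l* and *Rps26*. Of all genes, 4.77% were called in either direction, 1.7% higher and 3.07% lower, so the share of members called was close to the background. The median log2 fold change of the members was 0.03 against 0.00 for all genes, 60 of 81 were positive, and 12 had an unadjusted p under 0.05. None had a fold change over 2 (log2 over 1), the size the study asked for, where the background was 0.957%. Without normalization factors the calls were 4 higher and 1 lower.

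*Rpl26* encodes a large subunit protein at the exit of the nascent chain and also binds the *Trp53* mRNA. At E7.5 it stood at 1652 and 1734 CPM in WT and 2385 and 2457 in null libraries. At E8.5 it stood at 2858 and 2688 in WT and 2482 and 3628 in null libraries, and at E9.5 at 1278, 1274, 1343 and 1308 in WT and 2093, 2267, 2236 and 2128 in null libraries. The null libraries were thus all above the WT libraries at E7.5 and E9.5, and at E8.5 one null library lay below both WT libraries and the other above them. The mean log2 fold change was 0.47 (SE 0.063, edgeR adjusted p = 0.000776) and kept between 0.38 and 0.55 when any 1 library was left out. At E9.5 alone it was 0.74 (SE 0.084, edgeR adjusted p = 0.000483), at E7.5 0.56 (SE 0.119, edgeR adjusted p = 0.0134) and at E8.5 0.11 (SE 0.118, edgeR adjusted p = 1). The E7.5 call was lost without blood and extra-embryonic types (0.58, edgeR adjusted p = 0.164), among cells of 15000 to 40000 UMIs (0.50, edgeR adjusted p = 0.0667) and without E7.5 WT library A, null library A or null library B (edgeR adjusted p up to 0.112).

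*Rpl35a*, a large subunit gene, stood at 2430 and 2374 CPM in WT and 3444 and 3718 in null libraries at E7.5. At E8.5 the values were 2569 and 2098 in WT and 2942 and 2685 in null, and at E9.5 2416, 2513, 2260 and 2229 in WT and 2620, 2808, 2981 and 2638 in null libraries. Null libraries lay above WT libraries at all 3 stages, with the widest gap at E7.5. The mean log2 fold change was 0.37 (SE 0.054, edgeR adjusted p = 0.00178), and at E7.5 it was 0.62 (SE 0.103, edgeR adjusted p = 0.00263).

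*Rps27l*, the paralog of *Rps27* and a known target of p53, stood at 922 and 906 CPM in WT and 1017 and 1192 in null libraries at E7.5. At E8.5 it was 737 and 768 in WT and 809 and 900 in null, and at E9.5 578, 632, 611 and 660 in WT and 679, 749, 712 and 706 in null libraries. The groups did not overlap at any stage. The mean log2 fold change was 0.23 (SE 0.048, edgeR adjusted p = 0.0156), with a largest adjusted p of 0.0478 when 1 library was left out. Among cells of 15000 to 40000 UMIs it was 0.14 (edgeR adjusted p = 0.320).

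*Rps26*, which sits where mRNA leaves the small subunit, stood at 3845 and 3944 CPM in WT and 4532 and 4988 in null libraries at E7.5. At E8.5 it was 4229 and 4040 in WT and 4087 and 4491 in null, and at E9.5 3512, 3468, 3805 and 3830 in WT and 3882, 3943, 4260 and 3887 in null libraries. Null libraries were above WT libraries at E7.5 and narrowly at E9.5, and the groups overlapped at E8.5. The mean log2 fold change was 0.16 (SE 0.041, edgeR adjusted p = 0.0357) and the call was lost without blood and extra-embryonic types (edgeR adjusted p = 0.076), among cells of 15000 to 40000 UMIs (edgeR adjusted p = 0.120) and without some single libraries (up to 0.124). At E7.5 it was 0.34 (SE 0.078, edgeR adjusted p = 0.0225), a call lost without blood and extra-embryonic types (0.31, edgeR adjusted p = 0.278), over shared cell types (limma adjusted p = 0.115), among cells of 15000 to 40000 UMIs (edgeR adjusted p = 0.0780) and without E7.5 WT library A or null library B (edgeR adjusted p up to 0.165).

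Other members had values of the same size without passing the test. *Rpl27* had a mean log2 fold change of 0.26 and *Rpl36al*, the autosomal paralog of the X-linked *Rpl36a*, one of 0.22. *Rpl36al* stood at 265, 254, 270 and 282 CPM in WT and 298, 308, 363 and 326 in null libraries at E9.5, where the groups did not overlap. *Rpl27* stood there at 339, 340, 434 and 357 in WT and 378, 438, 514 and 449 in null libraries, and the groups overlapped. The stalk proteins, which recruit translation factors, had mean log2 fold changes of 0.08 (*Rplp0*), 0.05 (*Rplp1*) and 0.04 (*Rplp2*). *Rpsa* had −0.03, *Rps27a* 0.03, *Rpl38*, known for its part in translating Hox mRNAs, 0.02 and *Rpl10* 0.00. The lowest value among members was −0.09, for *Rps16*. Of the 17 members listed for Diamond-Blackfan anaemia 3 were called, *Rpl26*, *Rpl35a* and *Rps26*, all higher, against 4.77% of all genes in either direction and 1.7% higher, with a list median of 0.04. The *Rps26* call among them is the one lost under the alternatives given above, and the list was chosen with these results known.

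**Figure D3:**
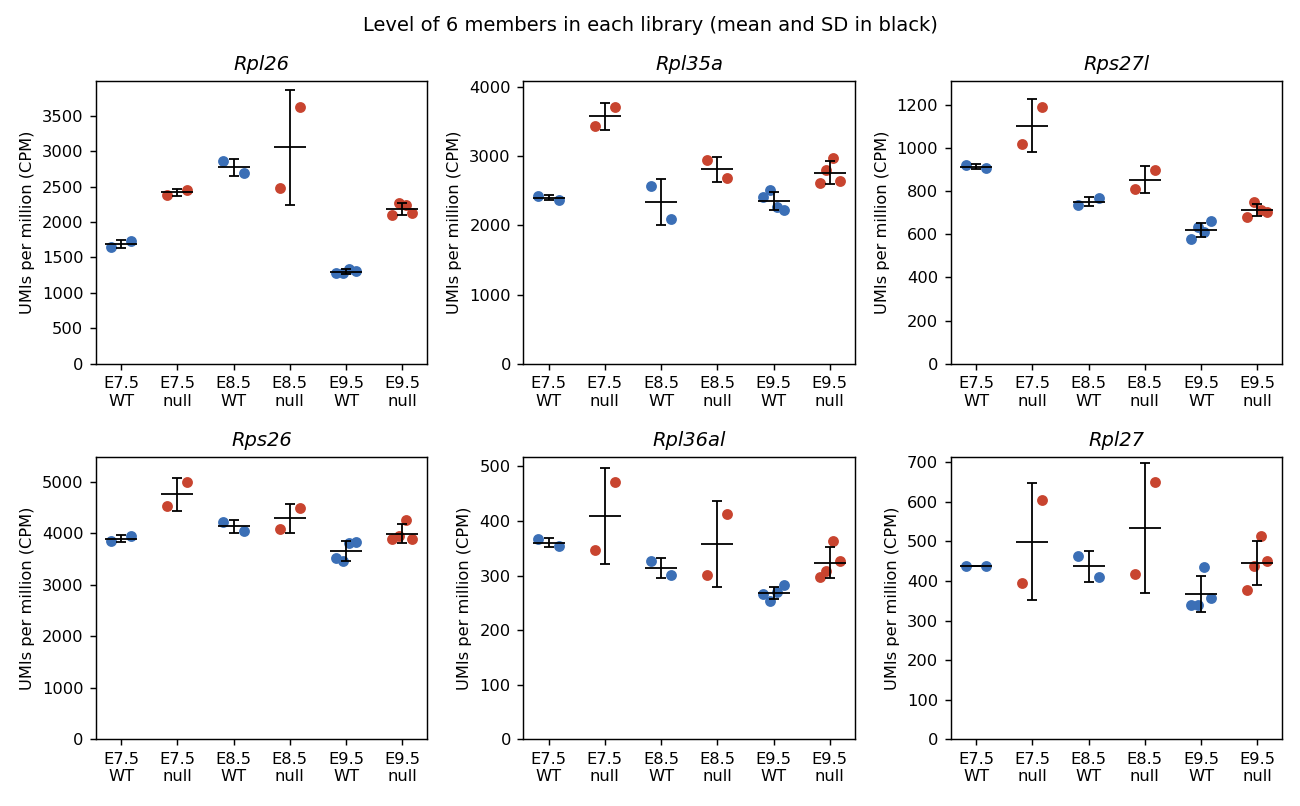
Level of 6 ribosomal protein genes in counts-per-million (CPM, axis from 0) in each of 16 libraries, by stage and genotype, with mean and SD in black (blue WT, red null). *Rpl26* separates the genotypes at E7.5 and E9.5 but not at E8.5, where the null libraries stand at 2482 and 3628, and *Rpl35a* and *Rps27l* separate them at all 3 stages.

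Stage by stage, 3 members were called at E7.5, *Rpl35a*, *Rpl26* and *Rps26*, all higher in null libraries, against 5.31% of all genes in either direction, 1.06% higher and 4.25% lower. DESeq2 called 5 there, all higher, the same 3 with *Rps27l* and *Rpl21*, and without normalization factors edgeR called 4 higher and 1 lower, *Rps16* (−0.22, edgeR adjusted p = 0.0245). At E8.5 edgeR called none, DESeq2 called none and 1 had an unadjusted p under 0.05, against 0.217% of all genes called. At E9.5 *Rpl26* alone was called, against 1.34% of all genes in either direction, 0.453% higher and 0.886% lower. None of these calls had a log2 fold change over 1, where the background was 2.6, 0.108 and 0.74% at the 3 stages. Leaving out 1 library gave 1 to 4 calls at E7.5, with 1 call without WT library A or null library B, and without blood and extra-embryonic types 1 call was left there, that of *Rpl35a* (0.60, edgeR adjusted p = 0.0275), which was also the 1 call left among cells of 15000 to 40000 UMIs. The null libraries lay wholly above the WT libraries for 21 members and wholly below for 5 at E7.5 (14.2 and 26.5% of all genes), for 11 and 8 at E8.5 (19.1 and 12.1%) and for 7 and 0 at E9.5 (3.37 and 3.56%).

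The genotype difference at E9.5 was tested against that at E8.5, and edgeR called no member, with 1 at an unadjusted p under 0.05, against 0.0319% of all genes called, and 0.0255% with a log2 fold change over 1. For *Rpl26* the difference of differences was 0.63 (SE 0.145, edgeR adjusted p = 0.458). DESeq2 called 1 member in this test, and edgeR called 1 when E8.5 null library B was left out.

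*Rpl26* and *Stat3* both lie on chromosome 11 of GRCm38, *Rpl26* at chr11:68901583-68906989 on the plus strand and *Stat3* at chr11:100885098-100939540 on the minus strand, 31.978 Mb apart. Of 7 members on this chromosome *Rpl26* was the only one called over the mean of stages, against 4 of all 81 members and 4.77% of all genes. *Rpl27*, at chr11:101442298-101445529 and 0.503 Mb from *Stat3*, was not called, with a mean log2 fold change of 0.26 and 0.27 at E9.5, and neither were *Rpl19* (0.04), *Rpl23* (0.02), *Rpl23a* (0.11), *Rps27a* or *Rpl38*. The other called members lie elsewhere, *Rpl35a* at chr16:33056453-33060189, *Rps27l* at chr9:66946086-66949516 and *Rps26* at chr10:128624534-128626747.

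Whether these differences were a matter of which cells a library held was examined by testing each cell type on its own, with edgeR on UMIs summed per library and type, for types that had more than 15 cells in 2 or more null and 2 or more WT libraries. At E7.5, 14 of 567 tests of a member in 1 of 7 types were called, all higher in null cells, against 0.276% of tests of all genes in either direction, 0.15% higher and 0.126% lower. They were *Rpl26* in 7 of 7 types and *Rpl35a* in 7 of 7. At E9.5, 51 of 2997 tests in 37 types were called, all higher, against 0.291% in either direction, 0.169% higher and 0.123% lower. At E8.5 edgeR called 0 of 1620 tests in 20 types, against 0.0948% of tests of all genes in either direction, 0.0515% higher and 0.0433% lower, and DESeq2 called none either. None of these calls had a log2 fold change over 1, against 0.19, 0.0626 and 0.122% of tests of all genes at these stages in order of age.

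At E9.5 *Rpl26* was called in 36 of 37 types, *Rpl36al* in 7, *Rpl35a* in 5 and *Rps27l* in 3. The log2 fold change of *Rpl26* ran from 0.60 in presomitic mesoderm (SE 0.103, edgeR adjusted p = 0.0455) to 0.96 in EMP (SE 0.101, edgeR adjusted p = 0.00159). Allantois, the type not called, had 0.65 (edgeR adjusted p = 0.264). Among all genes tested at E9.5, 2 were called in at least as many types as *Rpl26*, namely *Rpl26* itself and *Cwc22*, a splicing factor called higher in 37 types. *Stat3* was called lower in 9 of the 12 types in which it could be tested there (these 2 other genes were named after their values were seen). At E7.5, 6 genes were called in all 7 types, *Rpl26* and *Rpl35a* among them.

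At E7.5 the values for *Rpl26* ran from 0.51 in mesenchyme (SE 0.104, edgeR adjusted p = 0.0432) to 0.66 in ectoderm (SE 0.116, edgeR adjusted p = 0.0331). At E8.5 they ran from 0.05 in erythroid cells to 0.26 in allantois and were positive in 20 of 20 types, none called. The medians over types were 0.58, 0.16 and 0.73 for *Rpl26* at the 3 stages, and 0.58, 0.28 and 0.21 for *Rpl35a*, which was positive in 64 of 64 combinations of type and stage. *Rpl36al*, *Rps27l* and *Rpl27* were positive in 63 of 64 and *Rps26* in 61 of 64, *Rpl27* and *Rps26* without a call. Types of a stage share their libraries and do not count as replicates. Leaving out 1 of 4 libraries sets a lone library against 2 and assumes that it varies like those 2, so these counts describe single libraries. At E7.5 they were 8 without WT library B or null library B, 10 without WT library A and 17 without null library A. At E8.5 null library B alone against the WT libraries gave 101 calls (69 higher and 32 lower) and null library A alone 12, and edgeR gave 3 calls without WT library A and none without WT library B.

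**Figure D4:**
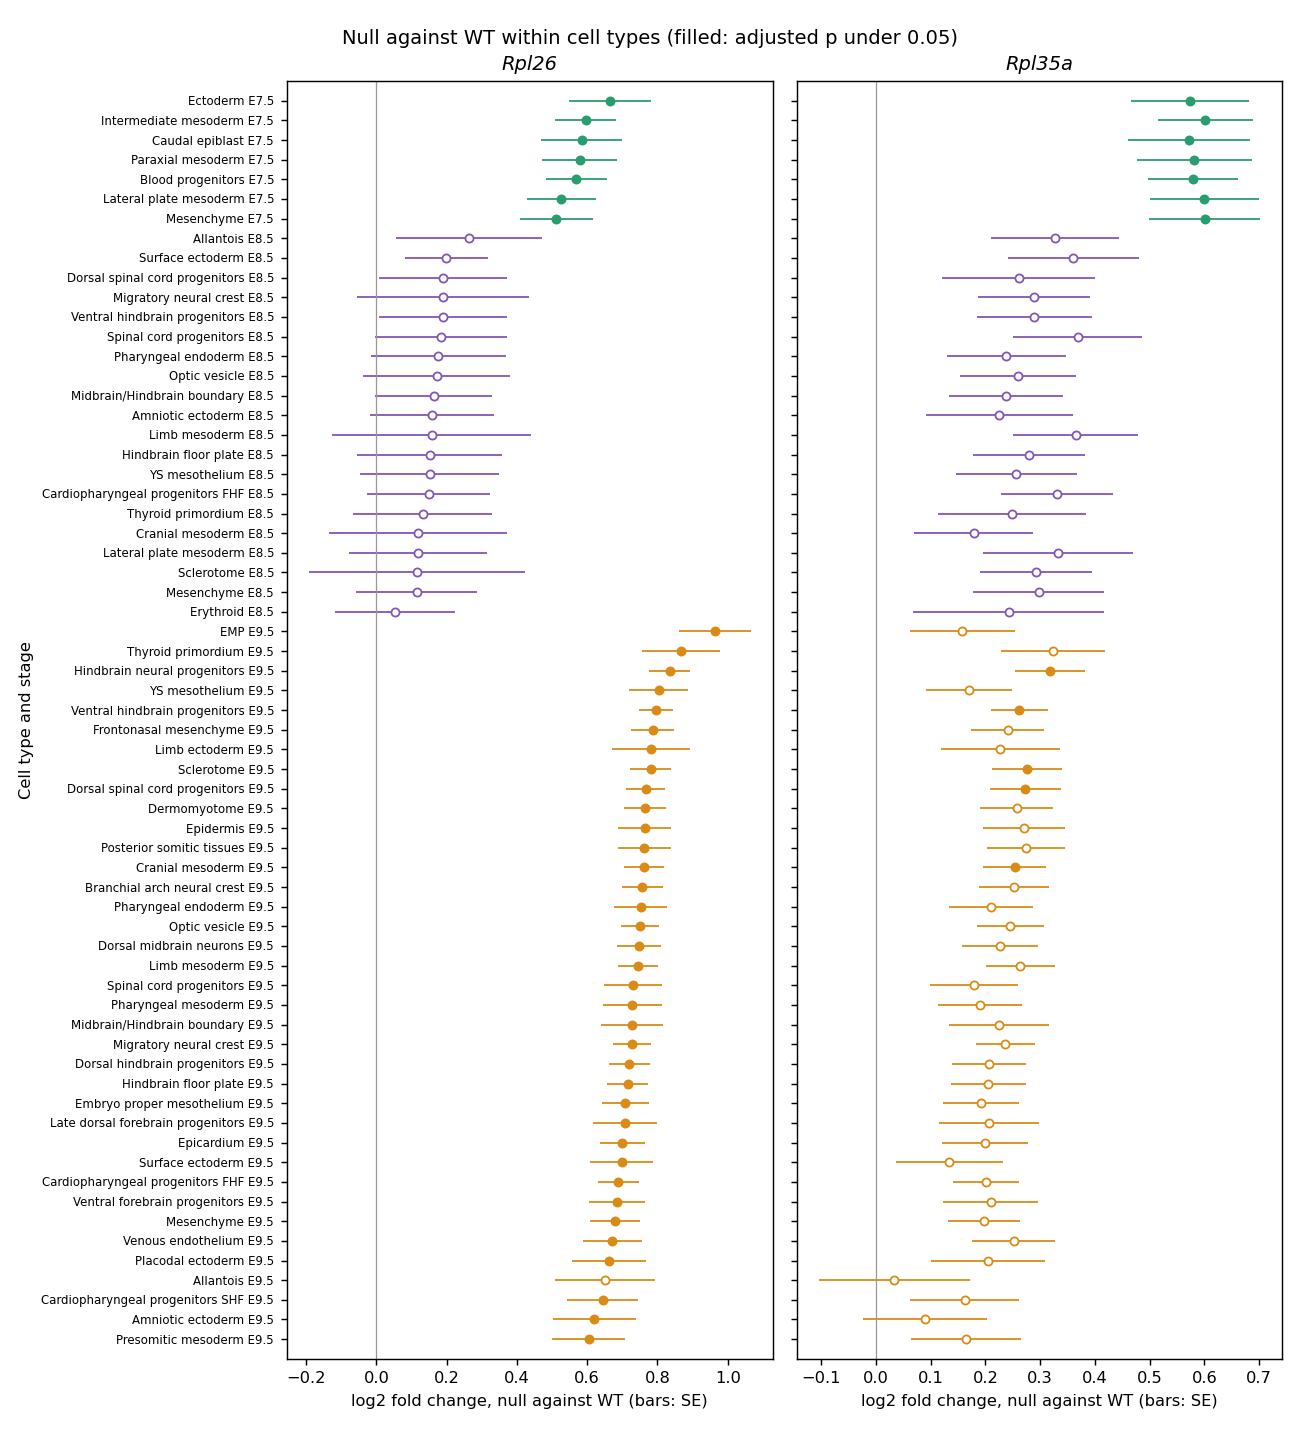
Log2 fold change of null against WT cells for *Rpl26* (left) and *Rpl35a* (right) in each cell type and stage, with SE as bars. Filled points passed the test; *Rpl26* sits at 0.51 to 0.66 at E7.5 (green), 0.05 to 0.26 at E8.5 (purple) and 0.60 to 0.96 at E9.5 (orange).

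The level of *Rpl26* was also read in each cell type by stage and genotype. Its mean over libraries ran, over cell types, from 1578 through a median of 1685 to 1823 CPM in WT cells at E7.5 and from 2194 through 2431 to 2534 in null cells. At E8.5 the range was 2448, 2824 and 3080 CPM in WT and 2623, 3057 and 3311 in null cells. At E9.5 it was 1035, 1311 and 1417 CPM in WT and 1813, 2167 and 2461 in null cells. At E7.5 and E9.5 the highest WT type was below the lowest null type, while at E8.5 the ranges overlapped. The lowest values at E9.5 were those of YS mesothelium in both genotypes. From E8.5 to E9.5 the level was lower in 31 of 31 shared types in WT cells, with a median log2 ratio of −1.08, and in 19 of 19 in null cells, with −0.52.

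Members also differed between stages. From E7.5 to E8.5, 46 members rose and none fell by edgeR's test in WT libraries, against 44.8% of all genes called in either direction and 22.8% higher, and 52 members had an unadjusted p under 0.05. The 46 were 23 small and 23 large subunit genes, with a members' median log2 fold change of 0.25 against 0.01 for all genes. *Rpl26* rose most, by 0.88 (SE 0.119, edgeR adjusted p = 6.9e-05), before *Rps18* at 0.68, *Rps23*, a protein of the decoding centre, at 0.54 and *Rpl5*, which with *Rpl11* holds the 5S RNA particle and binds Mdm2, at 0.51. In null libraries 36 rose and 5 fell, against 22.6% of all genes higher and 18.3% lower, with a members' median of 0.18. *Rps18* rose by 0.58, *Rpl10a* by 0.56, *Rps4x* by 0.52 and *Rps10* by 0.51, and *Rpl41* fell by 0.33, *Rps21* by 0.33, *Rps27l* by 0.27 and *Rpl7l1* by 0.26. None of the calls in either genotype had a log2 fold change over 1, against 17.6% of all genes in WT and 15.7% in null libraries. The WT count was 23 (21 higher and 2 lower) without blood and extra-embryonic types and 12 (9 and 3) over the 2 cell types that both stages share, and the null counts were 35 (24 and 11) and 22 (12 and 10). The shares of all genes given above belong to the fit over all cells. These smaller counts have no such share beside them, so whether the members stand out from other genes there is not shown. Without normalization factors the counts were 31 higher and 4 lower in WT and 30 and 11 in null libraries, with all genes' median at −0.10 and −0.02.

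From E8.5 to E9.5 the members fell almost as a whole. In WT libraries 80 of 81 fell, against 17.8% of all genes lower and 40.8% called in either direction, with a members' median of −0.48 against 0.06 for all genes. *Rpl21* (−0.05) was the exception. The summed erythroid markers given above were lower at E9.5 than at E8.5 in both genotypes. Without blood and extra-embryonic types 74 members fell in WT and 65 in null libraries, with members' medians of −0.38 and −0.36 and all genes' medians of 0.03 in both. Over the cell types that both stages share, 62 fell and 1 rose in WT and 59 fell in null libraries, with members' medians of −0.22 and −0.21 against 0.20 and 0.23 for all genes. *Rpl26* stood apart with a drop by 1.35 (SE 0.099, edgeR adjusted p = 2.9e-06), the only member past a log2 fold change of 1 where 3.18% of all genes were that much lower and 10.1% that far in either direction. It was followed by *Rps18* at −0.71, *Rpl35* at −0.70 and *Rplp1* at −0.69. In null libraries 74 fell, against 18.1% of all genes lower, with a members' median of −0.47. There *Rpl26* fell by 0.72 (SE 0.100, edgeR adjusted p = 0.000119), *Rps18* by 0.63 and *Rpl18* by 0.60, none of them past 1, against 10.4% of all genes. The E8.5 libraries enter both stage comparisons. Every E9.5 library was below every E8.5 library for 68 of 81 members in WT and 58 of 81 in null cells, against 9.51 and 10.6% of all genes. Without normalization factors 64 fell in WT and 58 in null libraries, with members' medians of −0.26 in both and all genes' medians of 0.28 and 0.25.

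**Figure D5:**
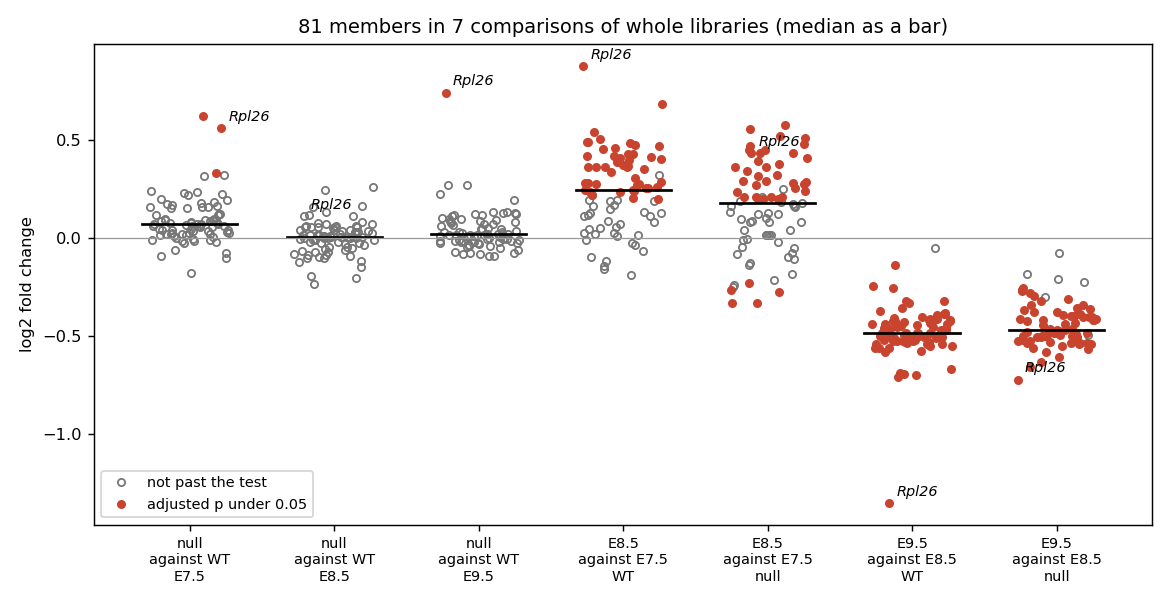
Log2 fold changes of 81 ribosomal protein genes in 7 comparisons between whole libraries (vertical axis), with the median as a bar and members past the test in red. Members lie near 0 between genotypes and around −0.48 (WT) and −0.47 (null) from E8.5 to E9.5, and *Rpl26* is at 0.74 for null against WT at E9.5 and at −1.35 for E9.5 against E8.5 in WT.

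Paralogs were read as a percentage of the pair that each forms with the member it is named after, whether or not it can replace that member. *Rps27l* made up 37.2 and 34.1% of the pair with *Rps27* in WT and 38.5 and 39.7% in null libraries at E7.5. At E8.5 it was 31.9 and 33.1% in WT and 34.2 and 37.8% in null, and at E9.5 32.0, 34.6, 29.4 and 33.6% in WT and 32.1, 37.0, 31.7 and 35.4% in null libraries. Null libraries were above WT libraries at E7.5 and E8.5 and overlapped them at E9.5. The difference was 2.88 points (exact permutation within stages, p = 0.0159, adjusted over 4 pairs 0.0317), 2.20 points among cells of 15000 to 40000 UMIs (exact permutation p = 0.0913) and 2.68 points without E8.5 WT library A (exact permutation p = 0.05).

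*Rpl7l1*, named after *Rpl7* and known for a role in early ribosome assembly, made up 0.277 points less of its pair in null libraries (exact permutation p = 0.0127, adjusted 0.0317). That call was lost over shared cell types (−0.134, exact permutation p = 0.393), without blood and extra-embryonic types (−0.203, exact permutation p = 0.208), among cells of 15000 to 40000 UMIs (−0.360, exact permutation p = 0.0619) and without E8.5 null library A or B (exact permutation p = 0.130 and 0.119). *Rpl36al* made up 1.12 points more of the pair with *Rpl36a* (exact permutation p = 0.0817, adjusted 0.109), with 16.42% in null and 15.01% in WT libraries at E9.5. Over shared cell types its difference was 1.55 points (exact permutation p = 0.000794, the smallest possible) and without blood and extra-embryonic types 1.49 points (exact permutation p = 0.00714). Without single libraries it ran from 0.636 (without E8.5 null library B, exact permutation p = 0.169) to 1.60 points (without E8.5 null library A, exact permutation p = 0.0254). The share of *Rpl22l1* in its pair with *Rpl22* was 0.268 points higher in null libraries (exact permutation p = 0.406), but −0.217 points at E9.5, −0.103 among cells of 15000 to 40000 UMIs, −0.0128 without blood and extra-embryonic types and 0.0349 without E8.5 WT library B.

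The balance within a pair also varied by cell type. *Rpl22l1* ran from 30.7% in dorsal midbrain neurons at E9.5 to 41.7% in embryo proper mesothelium at E8.5. *Rps27l* ran from 21.98% in thyroid primordium at E8.5 to 43.6% in blood progenitors at E7.5, and *Rpl36al* from 10.2% in hindbrain floor plate at E8.5 to 21.9% in erythroid cells at E9.5. Erythroid cells at E9.5 had the lowest share of *Rpl7l1*, 4.04%, and blood progenitors at E7.5 the highest, 10.99%. These ranges run over types and stages together, and the ends were not tested against each other. Erythroid cells at E9.5 rest on 4 libraries, with too few null ones for a test between genotypes, whereas other types mix both genotypes.

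Genes that build or serve the ribosome were read from fixed lists. Between genotypes, over the mean of stages, edgeR called none of the tested ribosomal protein genes with other names (*Fau* and *Rack1* among them). Of 19 genes listed for terminal oligopyrimidine messages, translation factors and others such as *Npm1*, none was called. Neither was any of 37 assembly factors, 14 RNA polymerase I genes, 19 regulators of ribosomal protein synthesis or 15 genes listed for p53 and nucleolar stress. The last list leaves out the member *Rps27l*, and the share of all genes called was the 4.77% given above. Of 78 mitochondrial ribosomal protein genes 4 were called, *Mrpl45* (0.20) and *Mrpl35* (0.20) higher and *Mrpl14* (−0.24) and *Mrps14* (−0.16) lower. Within cell types at E9.5, *Ccng1* was the only gene of the p53 list called in 3 or more types. It was called higher in null cells in 3 of 36 types, where 0.169% of tests of all genes were called higher.

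From E8.5 to E9.5 in WT libraries 17.8% of all genes were called lower and 23% higher, and these lists are read against those shares. The counts for the lists are from all analysed cells, and none are given without blood and extra-embryonic types or over shared cell types. A change in which cells the libraries held can therefore enter them. *Fau* and *Rack1* fell by 0.56 and 0.45. Of the 19 genes listed for terminal oligopyrimidine messages 15 fell, among them *Npm1*, a nucleolar chaperone, by 0.64 and *Eef1d* by 0.47. Of 37 assembly factors 35 fell, among them *Nop10* by 0.94 and *Nhp2* by 0.77, both parts of the particle that modifies ribosomal RNA, and 8 of 14 RNA polymerase I genes fell, among them *Polr1b* by 0.58. The regulators divided into 6 that fell and 4 that rose. *Myc*, which drives ribosome synthesis, fell by 0.91, *Eif4ebp1* by 0.89 and *Larp1*, which binds terminal oligopyrimidine mRNAs, by 0.64, while *Mxd4*, an antagonist of Myc, rose by 0.70. Of the mitochondrial ribosomal protein genes 66 of 78 fell. From E7.5 to E8.5 in WT libraries, 10 of the 19 genes listed for terminal oligopyrimidine messages rose and none was called lower. Of 37 assembly factors 4 rose and 13 fell there. Of all genes, 22.8% were called higher and 22% lower.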

How the data were processed

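The data are 16 libraries of 3′ single-cell RNA (10x). The authors mapped reads to mm10 with Cell Ranger, counted them on GRCm38.p5 annotation plus tdTomato, and deposited raw UMI counts per gene and cell without normalization. They kept barcodes of 10000 to 100000 UMIs and 2000 to 10000 genes, under 5% mitochondrial and 30% ribosomal RNA. The deposited table of cells gives the ribosomal percent per barcode, doublet calls and cell types. Doublet calls (3395 cells) and WT cells with a tdTomato UMI (596) were left out. The cells' library names match no sample title, so stage and sort gate were taken from the table of cells and letters only name libraries.

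UMIs were summed per library, or per library and cell type, and tested with edgeR 4.0.16. The settings were R 4.3.3, filterByExpr, TMM with factors of 0.908 to 1.08, robust quasi-likelihood and 1 mean per stage and genotype. The genes were those of the study's filter with Rpl and Rps genes put back. Imprinted genes, which the study left out, were also kept, so they enter the shares of all genes called. All 81 members passed the filter on low counts. Calls are Benjamini-Hochberg adjusted p under 0.05 over all genes tested. Fold changes are log2. Shares were compared by exact two-sided permutation within strata. Alternatives used DESeq2 1.42.0, limma 3.58.1 (pseudocount of 1 CPM), other filters, cells and libraries. The edgeR fit over libraries was tested, for the mean of stages, on simulated data with 200 changed genes. At 20682659 to 138613245 UMIs per library counting error is small beside the spread between libraries. Named were the members with the 5 highest and 5 lowest levels, called members with the largest changes, paralogs and anaemia genes, and up to 4 called genes per list, apart from a few that are not reported here. Members, lists and tests were chosen with earlier results of these data known. Gene coordinates are from GENCODE for GRCm38.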

Additional observations from a re-analysis of the deposited data

Results flagged for a closer look

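Of 44 groups of 4 libraries examined for a library far from the others, 2 held one, where chance gives about 1 in 20 groups. *Rpl7l1* as a percentage of its pair with *Rpl7* was 6.92% in E9.5 null library B, against 7.29 to 7.36% in the other 3. *Rps26* stood at 4260 CPM in E9.5 null library C, against 3882 to 3943 in the others.

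For *Rpl38* every null library was above every WT library at E7.5 (log2 fold change 0.17) and every null library below at E8.5 (−0.15). For *Rplp1* the null libraries were likewise above at E7.5 (0.15) and below at E8.5 (−0.084). The difference between these 2 stages was not tested.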

How the results depend on the processing

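No paired analysis was possible because no sample title carries the name of a library, so that no library can be tied to an embryo pool, and no replicate block was fitted. Of 468 alternative values over 24 results, 418 were scored as the same. Shares were scored by direction and side of the 0.05 threshold. Counts were scored as the same within a factor of 1.5, so many of them still changed. Fold changes of called members were scored by direction and threshold, but by direction alone when 1 library was left out. The planned mean over cells of the paralog share was not run. At E7.5 no type had more than 50 cells in enough libraries of each genotype for the test within types. With a log2 fold change over 1 required, the counts were 1 for E9.5 against E8.5 in WT and 0 for the other counts above 0. Cells of 15000 to 40000 UMIs left 2 calls over the mean of stages and 1 at E7.5. Without blood and extra-embryonic types E7.5 had 1 call and E8.5 against E7.5 in WT 23; balanced over shared types the latter had 12, and 22 in null. At E7.5 there were 5 calls without normalization factors (4 higher, 1 lower) and 5 with DESeq2 (all higher), which called 1 in the test between E9.5 and E8.5. Within types there were 4 calls at E8.5 with no filter and 24 at E9.5 with more than 50 cells, and types differing in share numbered 10 and, at 15000 to 40000 UMIs, 15. The *Rpl22l1* share turned to −0.103 at 15000 to 40000 UMIs and −0.0128 without blood types; *Rps27l* was 2.20 at that depth, *Rpl36al* 1.55 balanced and 1.49 without blood types, and *Rpl7l1* −0.134, −0.360 and −0.203 (balanced, depth, without blood types). The cause was not tested for any of these.

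Leaving out 1 library at a time, the share of UMIs differed by 0.256 to 0.770 (genotype), 0.701 to 1.47 (E8.5 minus E7.5) and −3.82 to −3.34 points (E9.5 minus E8.5). Paralog differences were 0.0349 to 0.502 (*Rpl22l1*), 2.27 to 3.49 (*Rps27l*), 0.636 to 1.60 (*Rpl36al*) and −0.393 to −0.160 (*Rpl7l1*). Called members numbered 3 to 5 over the mean of stages, 1 to 4 at E7.5, 0 at E8.5, 1 at E9.5, 31 to 48 and 26 to 43 for E8.5 against E7.5 (WT, null; 26 without E7.5 null A or E8.5 null B), 72 to 79 and 66 to 78 for E9.5 against E8.5, and 0 to 1 for the difference between stages. Calls within types were 8 to 17 at E7.5 (8 without WT B or null B), 0 to 101 at E8.5 and 40 to 55 at E9.5, and 23 to 28 types differed in share.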
